A study of Oryza sativa Indica Group with 226 samples.

Results

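The bHLH transcription factors described here are the probe sets of a rice Affymetrix array that the annotation gives to exactly 1 gene carrying a BHLH number in its symbol or synonyms, BHLH063 left out, and whose log2 values averaged 5 or more over all arrays. By that rule 8 probe sets of 7 genes entered, among 27735 probe sets (14621 annotated genes) that passed the same limit and 57381 on the array. Transcript levels were measured in shoots of untreated seedlings of Oryza sativa (Indica Group), 72 h after germination in the dark. They came from 110 recombinant inbred lines, named RIL and a number, bred from a cross of the varieties Minghui 63 and Zhenshan 97, with 2 biological replicates and so 2 arrays per line, and both parents with 3 arrays each, 226 arrays in all. The lines carry mosaics of both parental genomes, and no group was given any agent. The comparisons ask which bHLH genes differ between the parents, which vary repeatably over the lines, and which vary together.

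Basic helix-loop-helix (bHLH) proteins bind DNA as dimers: the basic region contacts DNA and the helices pair with a partner. Some members have lost DNA binding and act by sequestering or bridging partners. In rice, such atypical members form part of the brassinosteroid growth response, in which an activating HLH protein and its antagonist set cell elongation and the bending of the leaf lamina. Other bHLH proteins take part in jasmonate signalling and in immunity.

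The members fall into these roles. BU1 (bHLH172, chromosome 6, LOC4340551) is a positive regulator of the brassinosteroid response and of lamina bending. IBH1 (bHLH175, chromosome 4, LOC4337280) is an inhibitory HLH protein of the same growth response. BC1 (bHLH081, chromosome 9, LOC4347540) is a partner in an HLH activator complex of lamina inclination and grain size, and BCL1 (bHLH080, chromosome 8, LOC4346166) is its close relative. RAI1 (bHLH003, chromosome 3, LOC4331538) acts downstream of the small GTPase Rac1 in immunity. BHLH148 (chromosome 3, LOC4334060) interacts with JAZ repressors of jasmonate signalling and has been tied to drought tolerance. BHLH004 (chromosome 10, LOC4349271) has 2 probe sets, and the one whose name carries the suffix a is called BHLH004 (a) below.

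Of the 14 candidate probe sets under the rule, 6 fell below the mean limit. LAX1, a regulator of axillary meristems, lay just outside at 4.94, as did a further IBH1 probe set at 4.86, while BHLH148 at 5.71 and BHLH004 (a) at 5.83 lay just inside. The remaining IBH1 probe set averaged 2.06. The anther regulators TDR, EAT1 and TIP2 averaged 3.63, 3.48 and 2.49, none above the highest of the array's Tag controls (2.55 to 4.63 on the parent arrays), which are designed to hybridise with nothing in rice. The reference table holds 16 rice genes with a BHLH number, so the family is covered only in part.

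A probe set's level depends on its probes as well as on the transcript, so the levels of different genes are given without an order. The overall mean was 8.50 for BCL1, 8.04 for IBH1, 8.04 for RAI1, 7.76 for BU1 and 7.09 for BC1. BHLH004 averaged 6.98, BHLH004 (a) 5.83 and BHLH148 5.71.

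Marker genes of several tissues were also read. Levels of different genes have no order, so these means cannot establish shoot identity. The 5 shoot markers averaged 8.14 to 12.8 over all arrays and the 2 anther markers 2.73 and 3.63. The 3 root markers averaged 3.53 to 8.45, with LSI1 the highest. The 5 endosperm and seed storage markers averaged 3.17 to 9.98, with GLB1 the highest, so both ranges overlapped that of the shoot markers. The 2 arrays of each line were compared over 694 probe sets that segregate. These differed between the parents by at least 1 log2 unit and had a repeatability (defined below) of at least 0.5. The repeatability limit favours a match within a line, so the matching is no independent check of the line labels. With the mean of each replicate number removed, replicate 1 arrays matched the replicate 2 array of their own line best for 104 of 110 lines. The other 6 matched another line better, and 4 pairs of lines correlated at 0.9 or more in transcripts that segregate. Leaving either out left the number of members called between the lines at 4 and the number of called pairs at 3.

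**Figure D1:**
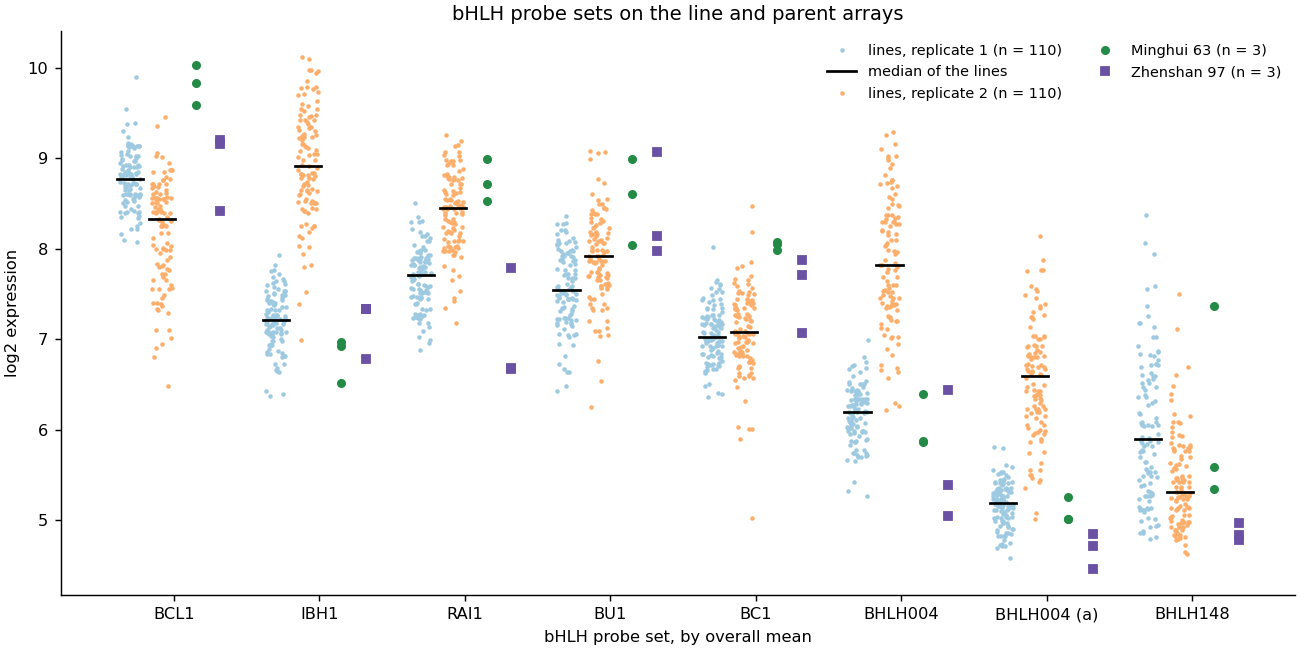
Log2 expression (vertical axis) of the 8 bHLH probe sets (horizontal axis), with small points for the 110 lines in replicate 1 and replicate 2, black bars for the medians of the lines, and large points for the 3 arrays of each parent. IBH1 and both BHLH004 probe sets sit much higher in replicate 2 of the lines than in replicate 1, and RAI1 is the gene in which the parents lie farthest apart.

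Between the parents, RAI1 was the only member to pass the test, and it was higher in Minghui 63. It measured 8.72, 8.99 and 8.53 in Minghui 63 and 6.67, 6.68 and 7.79 in Zhenshan 97. The groups did not overlap, and the third Zhenshan 97 array lay about 1 log2 unit above the others of its parent. The log2 difference was 1.70 (SE 0.32), a 3.25-fold higher level in Minghui 63 (adjusted p = 0.0171, limma over all tested probe sets with Benjamini-Hochberg adjustment, as for all parental values below). By this test 10.5% of all tested probe sets were called (4.93% with the higher level in Minghui 63, 5.59% with the higher level in Zhenshan 97), so 1 member of 8 is near the background. RAI1 was not called when the replicate number was used as a block (adjusted p = 0.0802). Nor was it called without the first or the second Zhenshan 97 array (1.51 and 1.52, adjusted p = 0.0612 and 0.0692). Leaving out the first or second Minghui 63 array also ended the call (1.71 and 1.58, adjusted p = 0.0545 and 0.0765). Without the third Zhenshan 97 array the difference was 2.07 (adjusted p = 0.00150).

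BCL1 measured 9.59, 9.83 and 10.03 in Minghui 63 against 9.20, 9.16 and 8.42 in Zhenshan 97. The groups did not overlap, but the difference of 0.89 (SE 0.24) missed the threshold (adjusted p = 0.0620). It passed when only probe sets with a mean of at least 7 were tested (adjusted p = 0.0370). BC1 measured 8.07, 7.99 and 8.05 in Minghui 63 and 7.71, 7.87 and 7.07 in Zhenshan 97, a difference of 0.49 (SE 0.22, adjusted p = 0.214) that was 0.25 without the third Zhenshan 97 array. The 2 related genes therefore both had all 3 Minghui 63 arrays above all 3 Zhenshan 97 arrays, with neither passing the test.

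The brassinosteroid pair gave overlapping values. BU1 measured 8.04, 8.61 and 8.99 in Minghui 63 and 8.14, 9.07 and 7.97 in Zhenshan 97 (difference 0.15, SE 0.35, adjusted p = 0.835). IBH1, its antagonist in the pathway, measured 6.52, 6.97 and 6.93 in Minghui 63 and 6.78, 7.33 and 7.33 in Zhenshan 97 (difference -0.34, SE 0.21, adjusted p = 0.369). That difference was -0.20 without the first Minghui 63 array and -0.52 without the first Zhenshan 97 array. The spread within each parent was wider than the BU1 difference, whose sign turned when the third array of either parent was left out.

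BHLH148 measured 7.37, 5.59 and 5.35 in Minghui 63 and 4.84, 4.78 and 4.97 in Zhenshan 97. The first Minghui 63 array stood well above the rest, and the difference of 1.24 (SE 0.49, adjusted p = 0.162) was 0.61 without it. BHLH004 measured 5.88, 6.40 and 5.87 in Minghui 63 and 5.39, 5.05 and 6.44 in Zhenshan 97 (difference 0.42, adjusted p = 0.520), and the difference was 0.83 without the third Zhenshan 97 array, 0.14 without the second and 0.25 without the second Minghui 63 array. BHLH004 (a) gave 5.01, 5.26 and 5.01 against 4.72, 4.85 and 4.46 (difference 0.42, SE 0.16, adjusted p = 0.157). The Zhenshan 97 means of BHLH148 (4.86) and BHLH004 (a) (4.68) lay close to the highest Tag control, so these differences may be understated. In 5 of the 8 members the parents did not overlap, against 32.3% of all tested probe sets. At an unadjusted p under 0.05 stood 4 of the 8 (RAI1, BCL1, BHLH004 (a) and BHLH148), against 26.1%.

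Other measures moved with the parents. All 5 shoot markers, genes of photosynthesis and chlorophyll synthesis, were lower in Minghui 63 and passed the test, with a median difference of -1.09. Of the root markers 1 of 2 tested, the silicon transporter LSI1, was also lower in Minghui 63 (-0.67), and none of the 3 tested endosperm markers passed. The actin 3′ minus 5′ control difference, which grows as RNA is degraded, was 2.05 to 2.22 in Minghui 63 and 1.82, 1.62 and 2.75 in Zhenshan 97. Its highest value fell on the third Zhenshan 97 array, which had the highest Zhenshan 97 values of RAI1, BHLH004 and BHLH148 (with IBH1 tied for the highest) and the lowest of BCL1, BU1, BC1 and BHLH004 (a). The part of these in the parental values was not tested. In bulk shoots, fewer cells of a type and less RNA per cell cannot be told apart.

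Among the lines, BU1, BC1, RAI1 and BCL1 varied between lines beyond the difference between the arrays of a line. An F test over the 110 lines with replicate number as a block, its residual variance moderated by limma, called these 4 of 8 members, against 16.0% of all tested probe sets. Repeatability, the share of variance that lies between lines within replicate number, was 0.532 for BU1 (adjusted p = 1.15e-08), 0.435 for BC1 (adjusted p = 1.10e-05), 0.392 for RAI1 (adjusted p = 0.000113) and 0.288 for BCL1 (adjusted p = 0.00645). BU1 alone reached a repeatability of 0.5, against 4.49% of all tested probe sets.

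BU1 ran from 6.43 to 8.36 in replicate 1 (median 7.54) and from 6.25 to 9.08 in replicate 2 (median 7.92). The mean of the 2 arrays was lowest in RIL030, at 6.64 and 6.54, and highest in RIL015, at 8.10 and 9.07. The span of the line means was 2.00 log2 units, a 3.99-fold range, and RIL030 was low on both of its arrays. Replicate 1 and replicate 2 correlated at r = 0.539 over the lines. Both arrays lay below all 6 parent arrays in 56 lines and above all of them in 0 lines. At least as many lines below the parents were found for 4.40% of all tested probe sets.

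BC1 ran from 6.36 to 8.02 in replicate 1 (median 7.02) and from 5.02 to 8.47 in replicate 2 (median 7.08). Line means reached from 5.72 in RIL238 to 7.94 in RIL156, and the replicates correlated at r = 0.476. RIL238 was low on both arrays, at 6.41 and 5.02, and RIL156 high on both, at 8.02 and 7.85. For BC1, 37 lines lay below all parent arrays on both of their own arrays, and 0 lay above. At least as many lines below the parents were found for 7.42% of tested probe sets. The median of the line means, 7.78 for BU1 and 7.10 for BC1, thus lay under both parental means in each gene. The actin control difference introduced above was higher on the parent arrays (1.62 to 2.75) than in the median line (1.04 in replicate 1, 1.49 in replicate 2), and its part in this position was not tested.

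BCL1 ran from 8.07 to 9.90 in replicate 1 (median 8.78) and from 6.48 to 9.46 in replicate 2 (median 8.33), with r = 0.346 between the replicates. In this gene 14 lines lay below all parent arrays on both of their own, and 15.9% of tested probe sets had at least as many. The lines with the 3 highest BCL1 means, RIL241, RIL156 and RIL137, were also those with the 3 highest BC1 means. At the low end BCL1 was led by RIL018, whose replicate 2 array read 6.48 and replicate 1 array 8.65.

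RAI1 ran from 6.88 to 8.51 in replicate 1 (median 7.71) and from 7.18 to 9.26 in replicate 2 (median 8.46), with r = 0.405. No line lay beyond the parents on both arrays, and 76 of 110 line means were nearer to the Minghui 63 mean than to that of Zhenshan 97. The lowest lines included RIL139 (7.25 and 7.18), and the highest RIL180 (8.19 and 9.26) and RIL006 (8.35 and 9.07). In replicate 2 the actin control difference was 5, 5.69 and 1.30 in the 3 lowest lines (RIL139, RIL219 and RIL241). For the 3 highest (RIL180, RIL006 and RIL209) it was 1.16, 1.02 and 3.12. Its part in these ends was not tested.

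IBH1, both BHLH004 probe sets and BHLH148 did not pass the test. Their repeatability was -0.025 for IBH1, 0.111 for BHLH004, 0.039 for BHLH004 (a) and 0.067 for BHLH148. IBH1 still spanned 6.37 to 7.93 in replicate 1 and 6.99 to 10.12 in replicate 2, and the values of a line in the 2 replicates correlated at r = -0.031. BHLH148 spanned 4.79 to 8.37 in replicate 1 and 4.63 to 7.50 in replicate 2. Its line RIL004 was high on both arrays, at 7.59 and 7.50, whereas RIL149 read 8.37 and 5.30. BHLH148 showed the widest range of line means among the members, 2.84 log2 units, of which little recurred (r = 0.074).

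**Figure D2:**
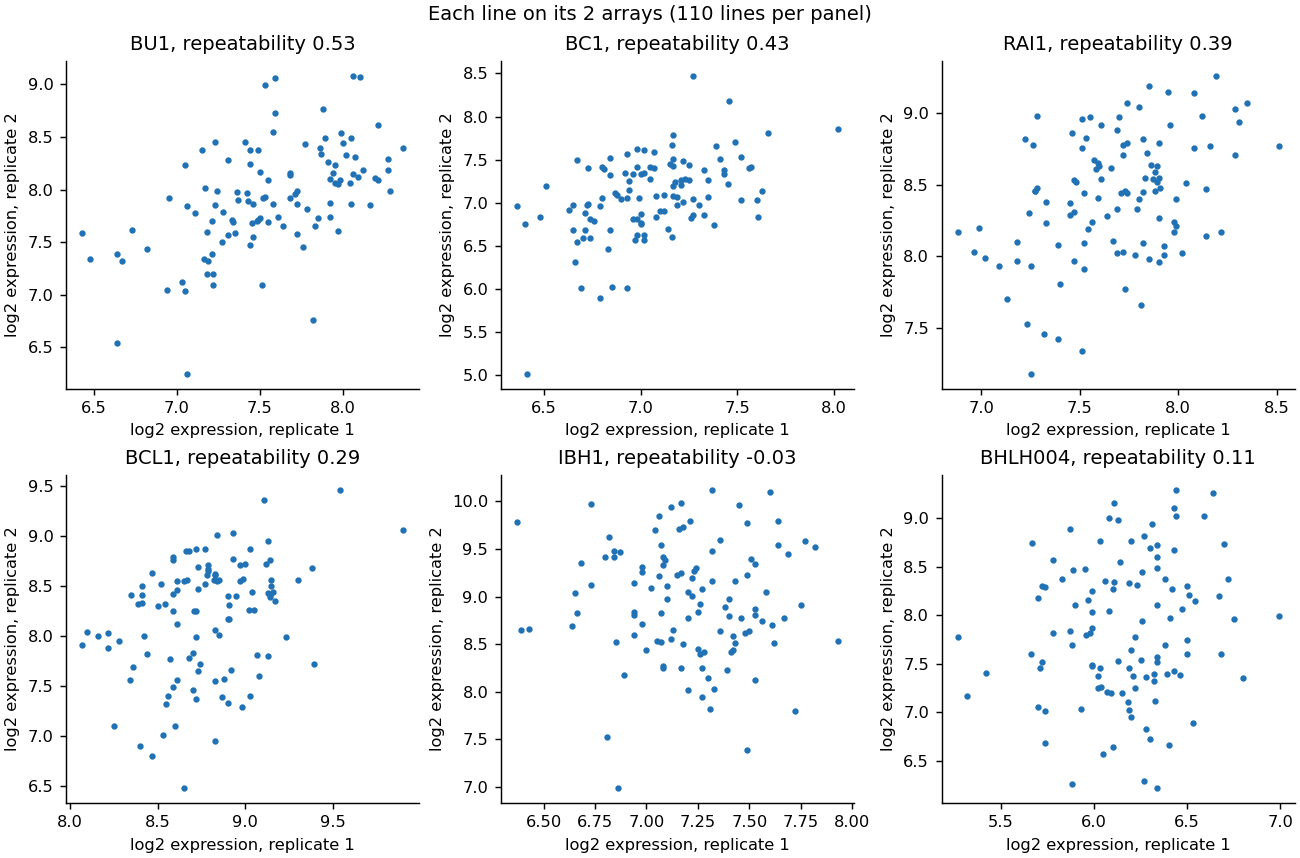
Log2 expression of each line in replicate 1 (horizontal axis) and replicate 2 (vertical axis), 110 lines per panel, for BU1, BC1, RAI1, BCL1, IBH1 and BHLH004. The points slope upward for BU1, where r is 0.539, and show no slope for IBH1, where r is -0.031.

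The replicate number carried a large shift in most of these genes, as over the array, where 92.2% of tested probe sets differed between replicate 1 and replicate 2 of the lines (43.7% higher and 48.5% lower in replicate 2, limma on the within-line differences). In all, 7 of 8 members shifted. IBH1 was higher in replicate 2 by 1.73 (SE 0.065), in 109 of 110 lines. BHLH004 was higher by 1.69 (SE 0.069) in 109 lines and BHLH004 (a) by 1.37 in 107 lines. RAI1 was higher by 0.74 in 104 lines and BU1 by 0.35 in 90 lines. BCL1 fell by 0.59 and was higher in only 12 lines, and BHLH148 fell by 0.58 with 32 lines higher. BC1 differed by 0.03 (adjusted p = 0.537), and by -0.11 once each array was centred on its median (adjusted p = 0.0140). What the replicate number stands for beyond a biological replicate is not given in the labels.

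With no replicate block the F test called 6.01% of all tested probe sets and 2 of the 8 members, BU1 and BC1. RAI1 and BCL1, whose shifts were larger than their spread between lines, then had a repeatability of -0.278 and -0.079.

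RNA quality differed between the replicate numbers too. The actin 3′ minus 5′ difference ran from 0.59 to 2.63 in replicate 1 (median 1.04) and from 0.79 to 5.74 in replicate 2 (median 1.49). It did not recur within lines (r = 0.0048 between replicates). In replicate 2 it correlated over the 110 lines with BCL1 at r = -0.693 (rho -0.663), with BHLH004 at 0.606 (rho 0.679), with IBH1 at 0.479 (rho 0.602), with RAI1 at -0.421 (rho -0.322) and with BC1 at -0.304 (rho -0.291). These 5 passed a permutation test (adjusted p at most 0.00484, 14 relations, 100000 permutations), and all kept their sign without the 2 most distant lines. For BU1 the correlation was -0.005 and for BHLH148 -0.172 (adjusted p = 0.957 and 0.122). In replicate 1 only BHLH004 passed by Pearson's r (0.247, adjusted p = 0.0211). IBH1 there passed by rho (0.342, adjusted p = 0.00109) and not by r (0.200, adjusted p = 0.0721). Over all tested probe sets 31.3% correlated with the measure at a size of at least 0.5 in replicate 2 and 2.76% in replicate 1. The median size over all of them was 0.350 in replicate 2, above that of BC1, and 0.157 in replicate 1. The share of all probe sets that would pass the permutation test was not computed. After the actin measure was regressed out within each replicate number, the F test called the same number of members. Repeatability was then 0.521 for BU1, 0.417 for BC1, 0.421 for RAI1 and 0.260 for BCL1.

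Co-variation among the 7 genes was measured over the lines in each replicate number and then between arrays, setting one gene in replicate 1 against the other in replicate 2, so that the pair shared the line and not the array. Of 21 pairs, 3 passed in both replicates with the same sign by permutation (100000 permutations, Benjamini-Hochberg over the 21 pairs). These were BCL1 with BC1, BU1 with BC1, and IBH1 with BHLH004. In a sample of all pairs of tested genes, r in replicate 1 had an SD of 0.377, so r far from 0 was common over the array. The share of all pairs of genes that would pass this test was not computed.

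BCL1 and BC1, the 2 relatives, correlated at r = 0.568 in replicate 1 and 0.556 in replicate 2 (rho 0.525 and 0.569, adjusted p = 7e-05 and 4.2e-05). Without the 2 lines farthest from the median the values were 0.517 and 0.527. Between arrays the pair kept r = 0.251 (rho 0.216, adjusted p = 0.0269 and 0.0466) and 0.220 without 2 lines. It was the only pair to pass between arrays by both measures. BC1 with BHLH004 passed there by rho (-0.193, adjusted p = 0.0466) and not by r (-0.169, adjusted p = 0.120). Among all pairs of tested genes, r between arrays reached a size of 0.3 in 0.0479% and had an SD of 0.073 in a sample of pairs.

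BU1 and BC1 correlated at 0.353 and 0.435 (rho 0.328 and 0.362, adjusted p = 0.000504 and 6e-05). Their r between arrays was 0.150 (adjusted p = 0.203). Without 2 lines the within-replicate values were 0.310 and 0.443.

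IBH1 and BHLH004 correlated most within arrays, at 0.605 in replicate 1 and 0.852 in replicate 2 (rho 0.547 and 0.860, adjusted p = 7e-05 and 4.2e-05). Without the 2 most distant lines the values were 0.561 and 0.846. They are the only pair with r of at least 0.6 in replicate 1, a size that 12.7% of all pairs of tested genes reached in either direction. Between arrays their r was 0.012 (adjusted p = 0.954). The 2 probe sets of BHLH004 itself behaved likewise, with 0.719 and 0.924 within arrays and 0.108 between them. The pair thus moved together from array to array. Neither gene recurred much with the line (repeatability -0.025 for IBH1 and 0.111 for BHLH004). Low repeatability in both genes limits the r between arrays that this pair can reach, so the value of 0.012 says little about the pair itself. With any tested gene, the largest r between arrays was 0.231 for IBH1 and 0.275 for BHLH004.

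In replicate 2 alone, BCL1 ran opposite to IBH1 (r = -0.727) and to BHLH004 (r = -0.696). In replicate 1 the same pairs gave -0.105 and -0.034, and between arrays -0.062 and -0.136. All 3 genes also followed the actin measure in replicate 2. With that measure regressed out their correlations in replicate 2 were -0.625 and -0.481, and the 3 pairs named above stayed called, together with BCL1 and BU1, and RAI1 and BHLH004.

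**Figure D3:**
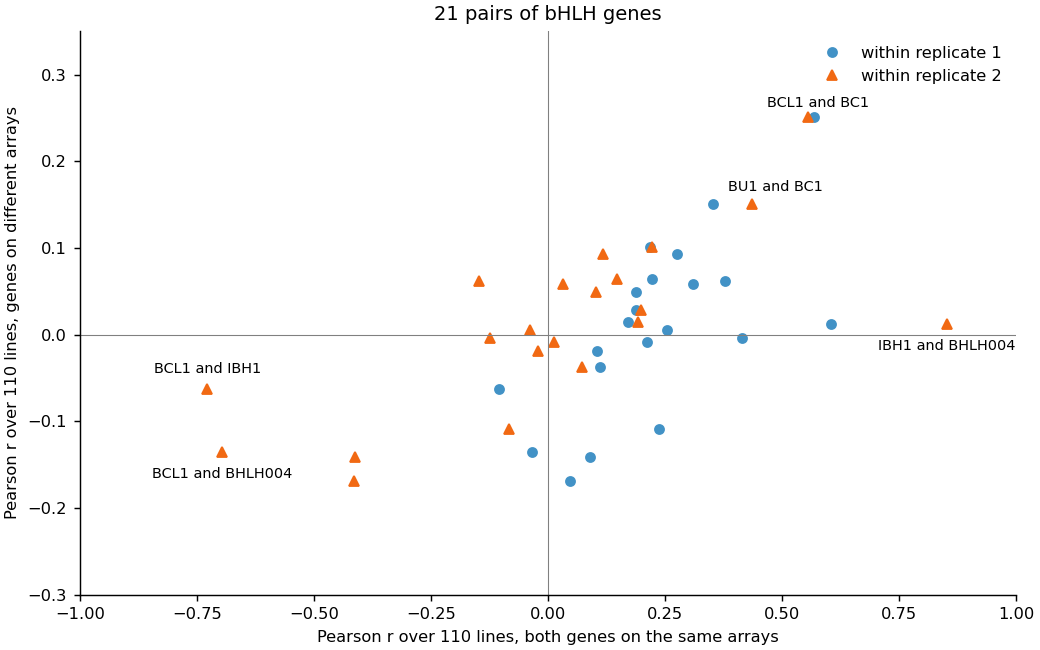
Pearson r over 110 lines for the 21 pairs of bHLH genes, with both genes on the same arrays (horizontal axis; circles replicate 1, triangles replicate 2) and on different arrays (vertical axis). IBH1 and BHLH004, neither called between the lines, lie at 0.852 on the horizontal axis in replicate 2 and at 0.012 on the vertical axis. BCL1 and BC1, both called between the lines, keep 0.251.

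Whether a member's level followed the parental origin of its own chromosome segment was described with an index, since genotypes were not used here. It is the mean standardised level of nearby genes that differed between the parents (log2 difference of at least 1) and had a repeatability of at least 0.5, signed so that a high value means more like Minghui 63. Nearby means within 200 genes in annotation order. Of the members, 6 had 3 or more such neighbours, BHLH004 having 1. The neighbours correlated with each other at a median of 0.865 for BU1 (3 genes), 0.648 for BC1 (7), 0.424 for BCL1 (4), 0.290 for IBH1 (6), 0.249 for RAI1 (3) and 0.073 for BHLH148 (3), and the higher this value, the more the index stands for 1 segment.

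BU1 was lower in lines with the Minghui 63 type of segment. The 56 lines above 0 of the index averaged 7.50 ± 0.37 (SD) and the 54 lines below it 7.98 ± 0.28. The difference was -0.49 (SE 0.062, permutation test, adjusted p = 3e-05 over 6 members) and held in both replicates, at -0.47 and -0.50. Within the Minghui 63 side r with the index was 0.156 and within the Zhenshan 97 side -0.104, so the relation lies between the 2 sides. Over all lines it gave r = -0.566 (rho -0.511, adjusted p = 6e-05, and -0.554 without 2 lines). With the index from one replicate and BU1 from the other, so that no array was shared, r was -0.508. The parents themselves differed by 0.15 in the other direction, within their spread.

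BC1 showed the same direction. The 64 lines on the Minghui 63 side averaged 6.92 ± 0.32 and the 46 on the other 7.26 ± 0.25, a difference of -0.34 (SE 0.054, adjusted p = 3e-05), with -0.33 in replicate 1 and -0.35 in replicate 2. Over all lines r was -0.354 (rho -0.336, adjusted p = 0.00034, and -0.351 without 2 lines), and -0.349 with no array shared. The index gave r = -0.456 with BC1 in replicate 1 and -0.210 in replicate 2. Without replicate 1 altogether r was -0.135 and not called (adjusted p = 0.189). Within the sides r was 0.450 and 0.138, of the opposite sign. Here too the parental difference, 0.49 or 0.25 without 1 array, had the other sign and did not pass its test.

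RAI1 was higher on the Minghui 63 side, as it was in Minghui 63 itself. The 60 lines there averaged 8.15 ± 0.33 and the other 50 lines 7.93 ± 0.27, a difference of 0.22 (SE 0.057, adjusted p = 0.00054), with 0.23 and 0.21 in the 2 replicates. Over all lines r was 0.351 (rho 0.351, adjusted p = 0.00034, and 0.302 without 2 lines), and 0.293 with no array shared. The index gave r = 0.413 with RAI1 in replicate 1 and 0.204 in replicate 2. Without replicate 1 altogether r was 0.175 and not called (adjusted p = 0.100). The difference between the sides was much smaller than the parental difference of 1.70. Within the sides r was 0.117 and 0.071.

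BCL1 rose with the index over all lines (r = 0.264, rho 0.286, adjusted p = 0.00864), but the sides differed by only 0.13 (SE 0.069, adjusted p = 0.122). Its r was 0.062 in replicate 1 and 0.307 in replicate 2, and 0.148 with no array shared. Without replicate 2 altogether it was 0.032 and not called (adjusted p = 0.885). IBH1 (r = -0.098) and BHLH148 (r = -0.083) did not pass, with differences between the sides of 0.01 and -0.05. By r over all lines 4 of 6 members were thus called. The share of all tested genes that would be called against such an index was not computed, so this count is not read as particular to the members.

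**Figure D4:**
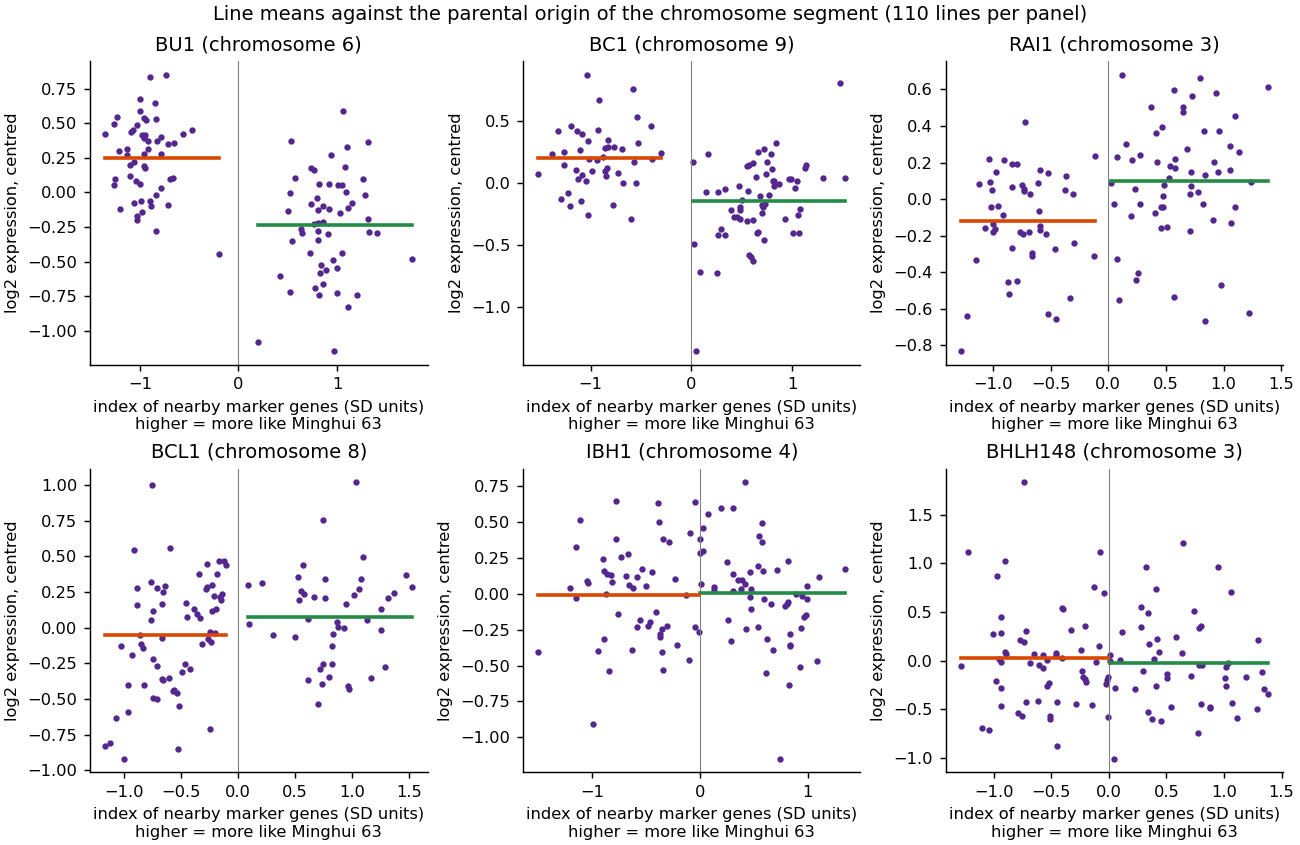
Line means of log2 expression, centred within replicate number (vertical axis), against the index of nearby marker genes in SD units (horizontal axis), 110 lines per panel. Horizontal bars are the means of lines above 0 (green) and below 0 (orange): for BU1 the sides differ by -0.49, for IBH1 by 0.01.

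The genes whose levels were most like each member over the lines were taken as the 20 with the largest size of r between arrays, among 14621 genes. For BU1, 14 of the 20 lay on its own chromosome 6, from 80 to 743 genes away, with r up to 0.499 in size. Of these 14, 11 ran opposite to BU1, and 7 of those were called higher in Minghui 63. None of the 14 had a gene name. The auxin efflux carrier gene PIN3A on chromosome 1 (r = 0.356) was the only named gene of the 20.

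For BC1, 16 of the 20 lay on its own chromosome 9, 7 of them within 50 genes, with the highest r at 0.448. They included CERK1, the chitin elicitor receptor kinase gene 4 genes away (r = 0.309), the bZIP gene RF2a 46 genes away (0.346), the heat shock gene HSP81-3 at 192 genes (0.333) and the tiller angle gene TAC1 at 123 genes (-0.312). TAC1 differed between the parents by 5.49, and of the 16 genes 6 were called between the parents. The beta-expansin gene EXPB3 on chromosome 10 followed at 0.309.

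RAI1 had 2 of its 20 on its own chromosome 3, 1 of them leading the list at 32 genes away (r = 0.335). Others included the aldolase gene FBA1 (0.268) and the allantoinase gene ALN (0.261). BCL1 had 0 on chromosome 8, with r up to 0.362 in size, the actin gene ACT3 (0.297) and the YABBY gene YAB6 (0.292) among them. IBH1, BHLH004 and BHLH148 had 2, 2 and 1 on their own chromosomes, and their r of largest size was 0.231, 0.275 and -0.218. The most similar genes of BU1 and BC1 thus lay mostly on the gene's own chromosome, within 200 genes for 5 of the 14 of BU1 and 15 of the 16 of BC1. For the other members 0 to 2 of the 20 lay on the gene's own chromosome.

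**Figure D5:**
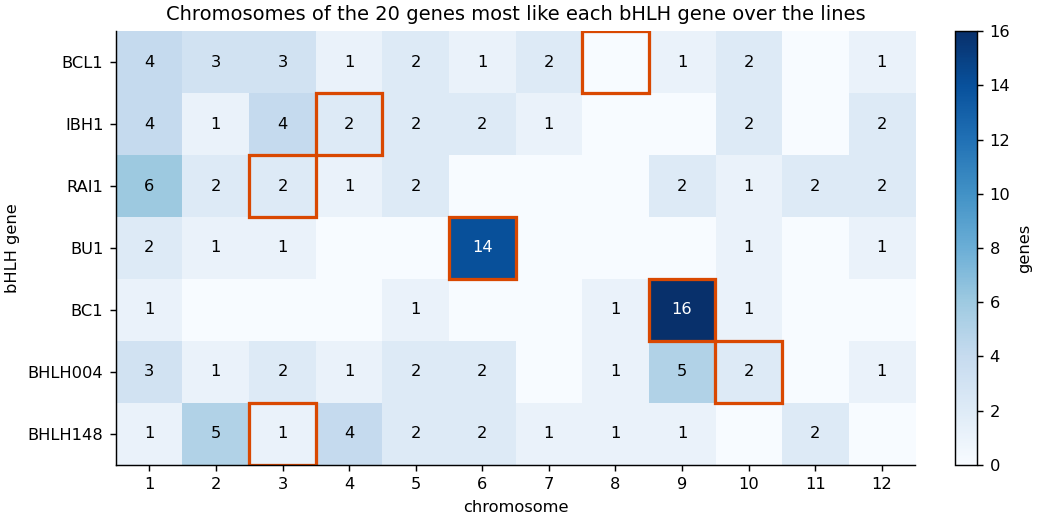
Number of genes on each rice chromosome (horizontal axis) among the 20 genes most like each bHLH gene (vertical axis) by r between arrays over 110 lines; orange frames mark the gene's own chromosome. BU1 has 14 on chromosome 6 and BC1 16 on chromosome 9, while BCL1 has 0 on chromosome 8.

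The pathways in which bHLH proteins act were followed with 61 tested genes in 7 lists. Of these, 13 were called between the parents and 16 between the lines, against 10.5% and 16.0% of all tested probe sets. The lists were chosen with earlier results of these data known, so the counts only describe them and are no test of the pathways.

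In the brassinosteroid list 1 of 7 genes was higher in Minghui 63, the co-receptor kinase gene BAK1 (10.02 against 9.23, difference 0.79, adjusted p = 0.0150), 0 were lower, and 0 varied between the lines. In the jasmonate list 1 of 20 was higher in Minghui 63, the JAZ repressor gene TIFY3 (0.67, adjusted p = 0.0215), and 0 were lower. TIFY3, TIFY11D and TIFY6A, all of the JAZ family, varied between the lines, with a repeatability of 0.492, 0.247 and 0.243. JAZ numbers are shared between genes in the annotation, so TIFY names are used.

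The phytochrome and light list had 2 of 9 genes higher in Minghui 63 and 3 lower. The phototropin gene PHOT1A (1.17) and the phytochrome gene PHYA (0.69) were higher. The chloroplast regulator gene GLK1 (-1.34) and the protochlorophyllide reductase genes PORB (-1.09) and PORA (-0.88) were lower. GLK1, PORA and PHOT2 varied between the lines.

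In the iron deficiency list 1 of 11 genes was higher in Minghui 63, the phytosiderophore synthesis gene NAAT1 (3.07), and 2 were lower, the nicotianamine synthase gene NAS3 (-2.17) and the vacuolar iron transporter gene VIT2 (-1.23). Of the 11, 6 varied between the lines, at a repeatability of 0.674 to 0.807. The entry TOM1 was matched by name only, to a gene on chromosome 2. It is counted in the 11, was called in neither comparison and is not interpreted. Both flavonoid genes, CHS1 (-1.18) and CHI (-0.60), were lower in Minghui 63 and varied between the lines. Of 7 diterpenoid phytoalexin genes 1 was higher, the momilactone synthesis gene MAS (1.03), and the cytochrome P450 gene CYP71Z6 varied between the lines. None of 5 cold and drought genes was called between the parents, and DREB2A varied between the lines (repeatability 0.256).

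Pairs of a member and a pathway gene were tested in the same way as pairs of members, 427 in all. Called pairs, of 61 per member, numbered 20 for IBH1, 14 for BHLH004, 10 for BHLH148, 9 for BC1, 7 for RAI1, 5 for BU1 and 3 for BCL1. The share called among pairs with any gene was not computed. Within replicate 1, r over all pairs of tested genes had an SD of 0.377, so these counts are not read as links to the pathways. Ordered by r between arrays, chosen after the values were seen, BU1 with the JAZ gene TIFY6A came first (0.247 and 0.230 within replicates, 0.268 between arrays). BC1 with the brassinosteroid synthesis gene D11 followed (0.246, 0.374 and 0.231), then BU1 with GLK1 (0.268, 0.242 and 0.212) and BCL1 with TIFY6A (0.288, 0.805 and 0.205). The many called pairs of IBH1 had a size between arrays of at most 0.120, and those of BHLH004 at most 0.092. Neither gene passed the test over the lines, which limits r between arrays with any partner.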

How the data were processed

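Shoot RNA of 110 lines and both parents was measured on 226 arrays. Each array gave 1 deposited log2 value per probe set, which the authors had normalized and which was not changed here. RMA and affy are the tools named, per the submitters' processing notes; no version or setting is given in the sources used here. RMA usually makes arrays alike in overall distribution, so levels are relative to the other transcripts on an array. The values ran from 1.16 to 14.35 with array medians of 4.77 to 5.07, and 0 arrays were identical. The number of arrays, 3 per parent and 2 per line, limits the precision.

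Control probe sets (123 AFFX and 64 RPTR) and probe sets with a mean under 5 were left out of the tests. The platform annotation gave a single gene for 22436 probe sets and several for 95. Names, chromosomes and gene order came from RefSeq's gene list for assembly ASM3414082v1; the genome build of the array annotation is not given in the sources used here, so no coordinates are given. That list held the genes of all members.

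The bHLH members, the pathway lists, the tests and the alternatives were chosen with earlier results of these data known. Parents were compared by limma 3.58.1 (R 4.3.3; data.table, version 1.17.8), 3 against 3 arrays. Lines were compared by an F test with line and replicate number, its residual variance moderated by limma. For repeatability, the mean square within lines was taken from that between lines and the result divided by the sum of both; it can fall below 0. Benjamini-Hochberg adjustment ran over all 27735 tested probe sets, with a threshold of 0.05. Correlations used 100000 permutations of the lines, two-sided; for genes with several probe sets the one with the highest mean was used. The parents' replicate numbers did not pair the arrays of the 2 parents (correlations of the deviations -0.307, -0.066 and -0.391), so the main fit for the parents has no block. The replicate shift of the lines did correlate with replicate 2 minus replicate 1 in Zhenshan 97 (0.494), though not in Minghui 63 (-0.0076). The fit with a block is therefore given as an alternative. Named genes are the members called, the 5 with the highest means, those with the largest shift or an r of at least 0.6, probe sets of a gene with several, and up to 3 called genes per pathway list; all 7 member genes are described. The window of 200 genes, the comparison of the sides of the index, the 20 most similar genes, the scan of bins and the actin measure were added after the data were seen. Replicates are those the labels call biological.

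On simulated data with the measured spread, the parental test recovered 39% of probe sets changed by 1 log2 unit and 84% of those changed by 2. The test over the lines recovered 98% of probe sets simulated with a repeatability of 0.5. The simulated noise was independent between probe sets and few probe sets were changed. The real arrays share variation and more probe sets were called, so the shares may differ there.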

Additional observations from a re-analysis of the deposited data

How the results depend on the processing

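Of 85 parental differences recomputed, 77 kept their direction and their side of the threshold. So did 51 of 53 repeatabilities, 12 of 13 replicate shifts, 15 of 15 pair correlations and 42 of 48 relations to local origin. Most of the parental differences were not called in the main fit and had no call to lose. RAI1, the only member called there, lost its call in 5 alternatives. The pair correlations counted are only those of the 3 pairs called in the main fit. The 1 member called between the parents became 0 with the replicate block and 2 with a mean of at least 7, and 0 to 1 with single parent arrays left out. The pathway genes called between the parents, 13, became 4 with the replicate block, 8 with all 226 arrays in the fit, 8 with a log2 difference of at least 1, and 6 to 16 with single arrays left out. The BU1 parental difference ranged from -0.068 to 0.492 with single arrays left out, and was -0.058 without the third Zhenshan 97 array. With no replicate block the members called between the lines fell to 2, those with a repeatability of at least 0.5 to 0 and the pathway genes called to 7, and the repeatability was -0.079 for BCL1 and -0.278 for RAI1. Shifted members numbered 4 with a mean of at least 7, where 5 were tested, and the BC1 shift was -0.11 on centred arrays. With the actin measure regressed out 5 pairs were called in place of 3, and with each array centred on its median 4. For local origin, 4 members called became 2 with neighbours differing by at least 2, where 3 members could be tested, and 2 to 3 with 1 replicate of the lines left out. Without replicate 1 RAI1 (0.175) and BC1 (-0.135) were not called, and without replicate 2 BCL1 (0.032) was not. The IBH1 correlation with local origin ranged from -0.206 to 0.011 over these, and the difference between the sides of the index was 0.0093. Where no reason is given the cause was not tested. The planned windows of 50 and 25 genes were not run, since 0 members had 3 neighbour genes within 50. No line replicate could be left out of the F test, which then has no residual. Levels near those of the Tag controls limit BHLH004 (a) and BHLH148.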

Other observations

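Each member was also set against 44 bins of 100 genes that held at least 3 marker genes, 352 relations in all over the 110 lines by permutation. BU1 was called in 3 bins, on chromosomes 6 and 4. Its largest value on its own chromosome 6 was -0.414 (adjusted p = 0.00352), and on chromosome 4 it was higher in lines more like Minghui 63 (r = 0.340, adjusted p = 0.029). BCL1, itself on chromosome 8, was called in 1 bin on chromosome 3 (r = 0.347, rho 0.437, adjusted p = 0.029, and 0.310 without 2 lines). RAI1, itself on chromosome 3, was called in 1 bin on chromosome 9 (r = 0.322, rho 0.338, adjusted p = 0.0387, and 0.308 without 2 lines). BC1, IBH1, BHLH004 and BHLH148 were called in 0 bins by Pearson's r. By rho more bins passed: 6 for BHLH004, 5 for BU1, 5 for BCL1, 4 for RAI1, 3 for IBH1, 3 for BHLH004 (a), 2 for BHLH148 and 1 for BC1. The largest for IBH1 was on chromosome 5 (rho -0.433, adjusted p = 0.00176, r = -0.288) and for BHLH004 on chromosome 1 (rho 0.368, adjusted p = 0.00774, r = 0.227). IBH1, both BHLH004 probe sets and BHLH148 had not passed the F test over the lines. The share of bins called for other genes was not computed, so the bin counts are not read as loci of the members.

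Some lines stood at the ends for several members. RIL241 had the highest BCL1 mean (9.54 and 9.46 on its 2 arrays) and the lowest IBH1 mean (6.86 and 6.99), with BC1 at 7.27 and 8.47 and RAI1 at 7.32 and 7.46. Its actin 3′ minus 5′ difference was 1.12 and 1.30, near the medians of the lines. RIL018 had the lowest BCL1 mean (8.65 and 6.48) and the highest IBH1 mean (7.60 and 10.1), and its actin difference was 1.16 in replicate 1 and 4.39 in replicate 2. RIL149 and RIL199 were among the 3 highest lines for both IBH1 and BHLH004, through replicate 2 arrays with actin differences of 3.38 and 3.07. RIL030 and RIL131, the lowest for BU1, had actin differences of 1.28 and 1.22 in replicate 2. For BC1 the 3 lowest lines (RIL238, RIL152 and RIL216) had 2.80, 3.66 and 2.56 in replicate 2. Its 3 highest (RIL156, RIL241 and RIL137) had 1.16, 1.30 and 1.27.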
